A study of Mus musculus with 8 samples.

Results

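The epithelial sodium channel and the genes known to regulate it were followed in IMCD3 cells with and without serum; the cells are a mouse kidney line derived from inner medullary collecting duct. The 9 genes are those of the channel subunits (Scnn1a, Scnn1b, Scnn1g), of the proteases Tmprss4 and Prss8, of the kinase Sgk1, of the ubiquitin ligase Nedd4l, of the mineralocorticoid receptor Nr3c2 and of the enzyme Hsd11b2. They were taken as all non-control probes that the array files name by these symbols (Sgk1 as Sgk), which gave 14 of 41174 probes. Of the 9 genes, 8 were measured and stand among the 16068 genes tested, and Scnn1b was not well above background in any sample. The set was put together with the starved over unstarved ratios of these same arrays in view, so its ratios are given as a description, without a test.

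The series compares unstarved with serum-starved IMCD3 cells, and its title ties this to FOXJ1, which switches on genes of motile cilia, and its effectors. Unstarved cells were grown in medium with 10% fetal calf serum, were split 1:10 on the day before collection and were subconfluent at harvest. Starved cells were kept for 48 h in the same medium without serum so that they formed cilia. Serum and the recent splitting of the unstarved cells therefore differ together and cannot be told apart. All cells were of 1 line, grown on 2 dishes per group, and neither group is described as having received aldosterone or another steroid. Each group has 4 samples, which are 2 replicates with 2 arrays each; on every array 1 unstarved and 1 starved sample were hybridised together in different dyes. No label ties a sample to a dish, so the spread between replicates may be partly technical.

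The channel is built from alpha, beta and gamma subunits, encoded by Scnn1a, Scnn1b and Scnn1g, and lets sodium enter collecting duct cells from the urine. Serine proteases cut its extracellular loops, which raises its activity, and the ubiquitin ligase Nedd4-2 (Nedd4l) removes it from the membrane unless the kinase SGK1 restrains that ligase. Aldosterone acts through the mineralocorticoid receptor to raise Sgk1 and channel subunit transcripts, while 11-beta-hydroxysteroid dehydrogenase type 2 (Hsd11b2) inactivates glucocorticoids that would otherwise occupy the receptor.

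Signals below are log2 values after background correction and normalisation, in arbitrary units, and the ratio on an array is the starved minus the unstarved signal on it. Signals are compared only within a probe, since probes differ in brightness. A probe was measured where the scanner software marked it as well above background. Between 59.6% and 62.8% of the non-control probes were so marked per sample, the lowest signal so marked lay between 6.61 and 7.01, and 0 spots were saturated. The epithelial identity of the cells was visible in both groups: all 8 epithelial markers looked up, among them Epcam and Cdh1, were well above background in every sample. Of 9 collecting duct markers, 7 were well above background on all 4 arrays of at least 1 group, 6 in unstarved and 6 in starved cells. Aqp2 and Slc14a2 were so in both groups, while Elf5 was above background in 0 of 8 samples.

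Scnn1g, the gamma subunit gene, was far higher in starved cells, while Scnn1a, the alpha subunit gene, was almost level and Scnn1b, the beta subunit gene, was not detected. The Scnn1g probe (chr7:121559068-121559127, array build mm8, plus strand, accession NM_011326) had signals of 7.43 and 7.23 in the unstarved samples of replicate 1 and 7.04 and 7.16 in those of replicate 2. In starved cells it had 9.60 and 9.51 in replicate 1 and 9.45 and 9.49 in replicate 2. Every starved sample lay above every unstarved one, with a gap of 2.03 between the groups. The ratios on arrays 1 to 4 were 2.17, 2.41, 2.28 and 2.33, and the mean was 2.30 ± 0.10 (SD, n = 2 replicates), a 4.91-fold higher signal in starved cells.

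The unstarved Scnn1g signals lay close to the lowest signal marked above background, so the size of this ratio depends on how background was treated. In the deposited value table Scnn1g had an intensity of 25.9 to 27.8 in unstarved and 274 to 279 in starved samples, a 10.3-fold difference. With a smaller normexp offset of 10 in place of 50 the log2 ratio was 2.68. The direction was the same on all 4 arrays and under all 19 alternatives tried, from 2.22 to 3.37.

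Scnn1a was measured by 1 of its 2 probes. The measured probe (chr6:125310444-125310503, mm8, accession NM_011324) had unstarved signals of 9.45 to 9.52 on the 4 arrays and starved signals of 9.39 to 9.45. The groups overlapped slightly, the ratio was below 0 on all 4 arrays, and the mean was -0.07 ± 0.03 (SD, n = 2). The other Scnn1a probe lies 1567 bases upstream and spans 205 bases of the genome (chr6:125308673-125308877), so it crosses a splice junction. It was not well above background in any of the 8 samples, with signals of 6.27 to 6.65, and 35.0% of its bases are G or C against 45.0% in the measured probe. Its sequence is shown because it is the probe of the alpha subunit that gave no measurement; no letters are marked.
Scnn1a junction probe: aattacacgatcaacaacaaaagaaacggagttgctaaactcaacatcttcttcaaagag

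The only Scnn1b probe (chr7:121709218-121709277, mm8, accession NM_011325) had signals of 6.34 to 6.60 in unstarved and 6.59 to 6.67 in starved samples. It was marked above background in 0 of 8 samples and was at the table's lowest value of 15 in all 8, so it has neither a ratio nor a bound. Scnn1g and Scnn1b are direct neighbours among the protein-coding genes of chromosome 7, and their probes lie 150091 bases apart. The gene on the other side of Scnn1g, Usp31, had 0.09 ± 0.13 (SE, limma adjusted p = 0.663), and Cog7, on the other side of Scnn1b, rose (0.70 ± 0.13, limma adjusted p = 4.6e-04), a call that was lost with median centring.

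Because Scnn1g was measured and its neighbour Scnn1b was not, the sequences before both starts are shown, from RefSeq promoter windows on GRCm38.p6 (a later build than that of the probe positions). Windows were on hand for 4 of the 9 genes: Scnn1g, Scnn1b, Nr3c2 and Sgk1. The motifs searched in the 250 bases before a start were the GC box GGGCGG (both strands), TATAAA (the gene's strand), the steroid hormone response half-site AGAACA (both strands) and the full palindrome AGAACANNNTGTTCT, which contains the half-site on each strand. Capitals mark matches. The Scnn1g stretch (chr7:121734229-121734419, plus strand) is cut where the earliest Scnn1g transcript begins; the Scnn1b stretch is chr7:121864788-121865037, plus strand.
Scnn1g: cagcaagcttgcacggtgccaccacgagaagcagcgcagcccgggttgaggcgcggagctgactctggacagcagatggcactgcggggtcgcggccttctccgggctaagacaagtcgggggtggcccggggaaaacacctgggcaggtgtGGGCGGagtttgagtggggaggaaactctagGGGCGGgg
Scnn1b: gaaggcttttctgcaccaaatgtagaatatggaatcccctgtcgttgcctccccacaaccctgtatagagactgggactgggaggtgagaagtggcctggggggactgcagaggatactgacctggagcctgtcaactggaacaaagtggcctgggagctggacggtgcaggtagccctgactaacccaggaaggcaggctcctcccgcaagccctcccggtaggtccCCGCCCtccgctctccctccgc

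The Scnn1g window, searched in full (chr7:121734229-121734478), held 2 GC boxes, starting 98 and 67 bases before the start that this window precedes. That start lies beyond the end of the printed Scnn1g stretch, so both boxes lie nearer to the earliest start, where the stretch was cut. The Scnn1b window held 1, starting 22 bases before its start. The Nr3c2 window held 3. All 3 windows held 0 TATAAA and 0 half-sites. Over all 32851 windows of 27025 genes, 32.7% held a GC box, 7.59% TATAAA and 16.1% the half-site. These matches are letters in a window and not shown to be sites.

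**Figure D1:**
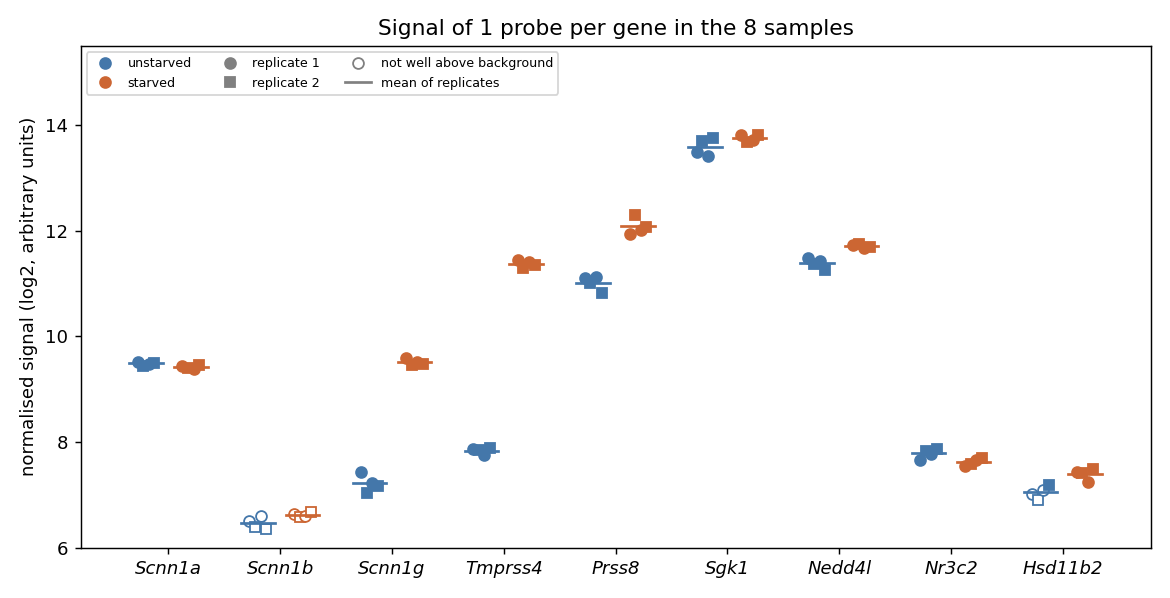
Normalised signal (log2, arbitrary units) of 1 probe per gene in each of the 8 samples: blue for unstarved, orange for starved, circles for replicate 1, squares for replicate 2, open symbols where the sample was not well above background, and lines at the mean of the replicates. Scnn1g, Tmprss4, Prss8, Nedd4l and Hsd11b2 show groups that do not overlap; heights of different genes are not comparable.

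Of the proteases, Tmprss4 showed the largest difference of the set and Prss8 a smaller one, both higher in starved cells. Tmprss4 encodes a membrane-anchored serine protease, channel-activating protease 2 in the mouse. Its probe (chr9:44923875-44923934, mm8, minus strand, accession NM_145403) had unstarved signals of 7.86, 7.84, 7.75 and 7.89 on arrays 1 to 4 and starved signals of 11.45, 11.30, 11.41 and 11.36. The groups were 3.41 apart at their nearest samples. The ratios were 3.59, 3.45, 3.66 and 3.47, with a mean of 3.54 ± 0.11 (SD, n = 2), an 11.6-fold higher signal. In the deposited value table the intensities were 56.2 to 79.8 in unstarved and 1190 to 1320 in starved samples, an 18.5-fold difference. Only 1 of the 16068 genes tested had a higher mean ratio than Tmprss4, and 21 had a higher one than Scnn1g, which ranked at 22.

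Prss8 encodes prostasin, the channel-activating protease 1. Its probe (chr7:127717295-127717353, mm8, minus strand, accession NM_133351) had unstarved signals of 11.10, 11.02, 11.13 and 10.82 and starved signals of 11.94, 12.30, 12.02 and 12.08. The groups did not overlap, and the ratio was 0.86 in replicate 1 and 1.27 in replicate 2, with a mean of 1.07 ± 0.29 (SD, n = 2), or 2.10-fold. Prss8 had the widest spread between replicates of the 8 measured genes. Its neighbours on the chromosome, Kat8 (0.12 ± 0.13 SE, limma adjusted p = 0.507) and Prss36, another serine protease gene (0.15 ± 0.12 SE, limma adjusted p = 0.404), did not pass the test.

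The genes of the ubiquitin branch differed less. Nedd4l had 2 probes, both measured in all 8 samples. The brighter had unstarved signals of 11.49, 11.36, 11.43 and 11.26 and starved signals of 11.73, 11.75, 11.68 and 11.69, and the other 9.19, 9.26, 9.21 and 9.33 against 9.48, 9.61, 9.52 and 9.68. With both probes the starved samples lay above all unstarved ones, by 0.19 and 0.14 at the nearest. The mean ratios were 0.33 ± 0.12 and 0.32 ± 0.04 (SD, n = 2), each 1.25-fold higher in starved cells, so the probes gave the same size although they lie in different parts of the gene and belong to different accessions (NM_031881 and AK122283).

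Sgk1, the serum- and glucocorticoid-regulated kinase, was bright in both groups. Its main probe (chr10:21689000-21689059, mm8, accession NM_011361) had unstarved signals of 13.50 and 13.41 in replicate 1 and 13.70 and 13.75 in replicate 2, against starved signals of 13.82 and 13.72, and 13.68 and 13.81. The groups overlapped, since the unstarved samples of replicate 2 reached the starved level. The ratio was 0.31 in replicate 1 and 0.02 in replicate 2, so the mean of 0.17 ± 0.21 (SD, n = 2) was smaller than the spread between replicates. In replicate 1 the starved RNA carried Cy5 and in replicate 2 Cy3, so a dye effect and a replicate difference cannot be told apart here. The second probe named Sgk (chr10:21588160-21588219, accession AK043284) lies 100781 bases upstream, carries the accession of a cDNA described as unclassifiable and was above background in 0 of 8 samples.

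RefSeq gives Sgk1 6 promoter windows, 1 per start, of which 3 held the half-site, 2 a GC box and 2 TATAAA. One window held the full 15-base palindrome, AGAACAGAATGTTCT at chr10:21993701-21993715, which begins 189 bases before the start that this window precedes and lies 965 bases before the next Sgk1 start after that one. Only 3 of all 32851 windows held the palindrome (0.00913%), those of Sgk1, Acnat2 and Gm35041. The window is printed (chr10:21993640-21993889, GRCm38.p6, plus strand) because Sgk1 is the textbook steroid target of the set, with matches in capitals; the CCGCCC run is a GC box on the other strand.
Sgk1: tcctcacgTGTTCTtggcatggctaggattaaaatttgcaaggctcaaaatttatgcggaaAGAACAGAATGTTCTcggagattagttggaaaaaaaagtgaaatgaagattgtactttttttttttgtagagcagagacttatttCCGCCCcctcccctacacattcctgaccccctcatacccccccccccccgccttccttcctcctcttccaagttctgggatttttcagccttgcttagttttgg

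The receptor gene Nr3c2 was dim and slightly lower in starved cells. It has 3 probes within 1197 bases of chromosome 8 (mm8, accession NM_001083906), of which only the middle one (chr8:79805101-79805160) was measured, in all 8 samples. That probe had unstarved signals of 7.67, 7.83, 7.78 and 7.87 and starved signals of 7.56, 7.59, 7.66 and 7.69. The ratio was below 0 on all 4 arrays, the groups overlapped by 0.02, and the mean was -0.16 ± 0.07 (SD, n = 2). The flanking probes (chr8:79804562-79804621 and chr8:79805699-79805758) were above background in 0 of 8 samples, with signals of 6.47 to 6.85 and 6.32 to 6.58. The 3 sequences are set side by side because only 1 of these nearby probes was measured; G and C make up 41.7%, 45.0% and 35.0% of their bases in this order, and no letters are marked.
Nr3c2 first probe, not measured: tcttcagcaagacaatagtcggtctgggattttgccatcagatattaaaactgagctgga
Nr3c2 middle probe, measured: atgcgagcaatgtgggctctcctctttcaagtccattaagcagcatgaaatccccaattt
Nr3c2 last probe, not measured: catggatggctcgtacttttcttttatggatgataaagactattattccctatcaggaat

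Hsd11b2 stood at the edge of detection, and its starved signals lay slightly above its unstarved ones. Its probe spans 218 bases of the genome (chr8:108412014-108412231, mm8, accession NM_008289) and so crosses a splice junction. It was above background in 4 of 4 starved samples but in only 1 of 4 unstarved ones, that of array 4. Its signals were 7.02, 6.91, 7.09 and 7.18 in unstarved and 7.44, 7.42, 7.24 and 7.48 in starved samples, without overlap but with a gap of 0.06. The ratios of 0.42, 0.52, 0.16 and 0.30 gave a mean of 0.35 ± 0.08 (SD, n = 2), or 1.27-fold, and 1.82-fold in the deposited value table (16.7 to 26.4 in unstarved, 32.6 to 42.9 in starved samples). Hsd11b2 entered the test only through the starved group, and with 3 of 4 unstarved samples not well above background the size of its fold is uncertain.
Hsd11b2 junction probe: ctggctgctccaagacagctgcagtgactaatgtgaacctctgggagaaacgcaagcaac

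**Figure D2:**
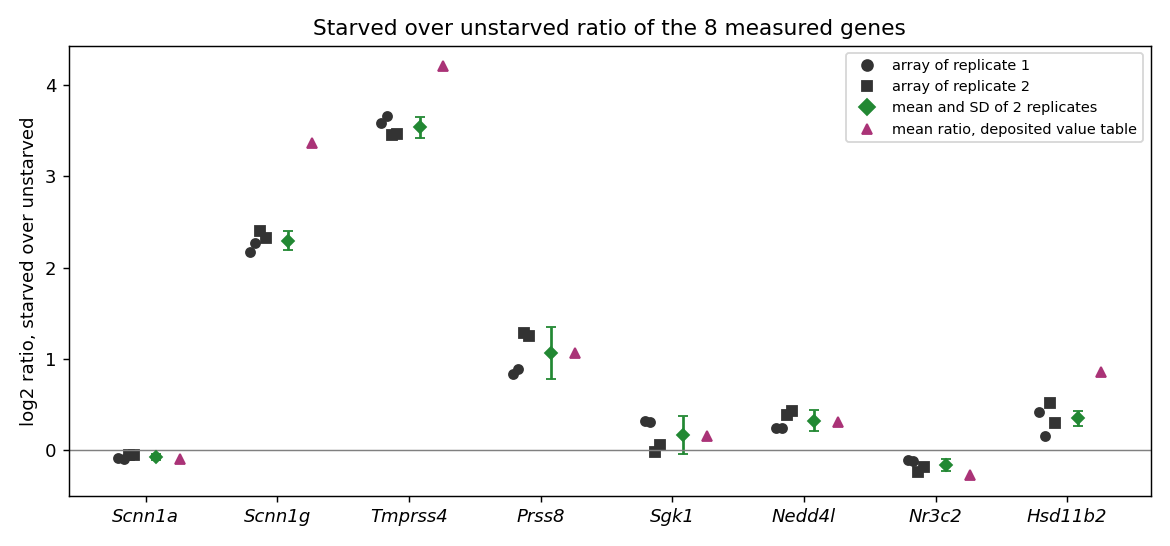
Log2 ratio of starved over unstarved signal for the 8 measured genes: black symbols are single arrays (circles replicate 1, squares replicate 2), green diamonds the mean of 2 replicates with its SD, and purple triangles the mean ratio from the deposited value table. The triangles of Scnn1g (3.37) and Tmprss4 (4.21), which were dim in unstarved cells, lie above the diamonds (2.30 and 3.54), while those of Prss8, Sgk1 and Nedd4l nearly coincide with them.

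Across the 8 measured genes, 6 had a higher and 2 a lower mean in starved cells. The samples of the 2 groups did not overlap for 5 of them, all higher in starved cells; 51.8% of all genes tested showed groups without overlap, 28.3% with starved cells higher and 23.5% with them lower. Both Scnn1g and Tmprss4 were at least 2-fold higher in each replicate, as were 2.20% of all genes tested, and 1.36% were at least 2-fold lower in each. Since these ratios were in view when the genes were picked, the counts support nothing by themselves.

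The genes whose ratios over the 4 arrays lay nearest to those of Tmprss4 were Cfi (Euclidean distance 0.70), Umod (0.73) and Egr2 (1.10), and the means of the first 2 were 3.19 and 3.21. Those nearest to Scnn1g were Aoc1 (0.13), Nupr1 (0.18) and Cdkl1 (0.21), with 2.24, 2.34 and 2.22.

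Other genes of sodium channel regulation moved in both directions. A list of 62 such genes, which leaves out the 9 above, had 48 tested members: 15 rose, 6 fell and 27 did not pass (limma, Benjamini-Hochberg adjusted p below 0.05). That is to be read against 31.4% of all genes tested that passed, 18.1% higher and 13.4% lower. The counts of the role groups below are to be read against the same shares. The list's median ratio was 0.14, and that of all genes tested was 0.01. A further 13 were not well above background and 1, Zbtb16, was not found on the array by name. With median centring in place of loess only 1 of the 48 passed, Fxyd5, which was lower in starved cells; the same setting left 249 of all 16068 genes, against 5051. It lowered some of the ratios given below as well, that of Nedd4 from 0.35 to 0.03, of Ndfip1 from 0.46 to 0.10, of Spint1 from 0.52 to 0.23, of Cnksr3 from 0.56 to 0.35 and of Pik3ca from 0.43 to 0.29.

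Among proteases and inhibitors that act on the channel, 2 of 9 tested rose and 2 fell. Tmprss2, another membrane-anchored serine protease gene, rose (1.12 ± 0.12 SE, n = 2, limma adjusted p = 3.3e-06), and Spint1, the gene of a Kunitz-type protease inhibitor, rose less (0.52). Plau, the urokinase gene, fell (-0.61), as did Prss22, a tryptase gene (-0.49, from -0.70 in replicate 1 and -0.28 in replicate 2). St14, the matriptase gene (0.17, adjusted p = 0.368), and Furin (0.02, adjusted p = 0.925), both of proteases linked to channel processing, did not pass in limma. Plg, Ctss and Serpine2 were above background in 0 of 8 samples.

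In the ubiquitin group 3 of 10 rose and 1 fell. Usp2, the gene of a deubiquitinase (0.48), Ndfip1, an adaptor of the Nedd4 family (0.46), and Nedd4 itself (0.35, limma adjusted p = 0.0414) rose. Nedd4 lost its call with a normexp offset of 10 (limma adjusted p = 0.0528), with the scanner's processed signals (0.0666) and with the deposited value table (0.0637). Ndfip1 lost its call with the mean of all probes (0.28, adjusted p = 0.084). Ywhae, which encodes a 14-3-3 protein, fell (-0.40).

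Of 14 kinase cascade genes 4 rose, 0 fell and 10 did not pass, where 18.1% of all genes tested rose and 13.4% fell. Cnksr3, a scaffold of channel regulation (0.56), Rictor, a subunit of mTOR complex 2 (0.51), Wnk4, a WNK kinase gene (0.44), and Pik3ca, a catalytic subunit of phosphoinositide 3-kinase (0.43), rose. Rictor lost its call with the mean of all probes (0.26, limma adjusted p = 0.102). The paralogues of Sgk1 did not pass, Sgk2 at 0.27 (adjusted p = 0.126) and Sgk3 at -0.03 (adjusted p = 0.873).

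Of 8 corticosteroid genes tested, 4 rose and 1 fell. Tsc22d3, which encodes the glucocorticoid-induced leucine zipper, rose most (0.99 ± 0.13 SE, n = 2, limma adjusted p = 2.3e-05), with 0.81 in the first replicate and 1.16 in the other. Klf9, a steroid-responsive transcription factor gene (0.63), Per1, a circadian clock gene with the same property (0.62, from 0.19 in replicate 1 and 1.04 in replicate 2) and Dot1l, a histone methyltransferase gene (0.45), rose too; Dot1l lost its call with the mean of all probes (0.25, adjusted p = 0.106). Hsd11b1, which encodes the enzyme that regenerates active glucocorticoid, fell (-0.52). Fkbp5, a steroid-induced immunophilin gene, had -0.07 (adjusted p = 0.749) and the glucocorticoid receptor gene Nr3c1 0.29 (adjusted p = 0.091).

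The pump and partner channels held the largest changes of the list, with 2 of 7 tested higher and 2 lower. Kcnj16, an inwardly rectifying potassium channel gene, rose (1.54 ± 0.13 SE, n = 2, limma adjusted p = 1.2e-07), and Atp1b1, the beta subunit gene of the sodium pump, rose 1.63-fold (0.71). Fxyd5, which encodes dysadherin, a regulator of the pump, fell 3.87-fold (-1.95 ± 0.12 SE, adjusted p = 5.5e-09). Cftr, the chloride channel gene, fell too (-1.18). Kcnj1, the secretory potassium channel gene, and Fxyd4, a collecting duct pump regulator, were above background in 0 of 8 samples, and of the 5 other degenerin family channels (Asic1 to Asic5) 0 were tested.

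**Figure D3:**
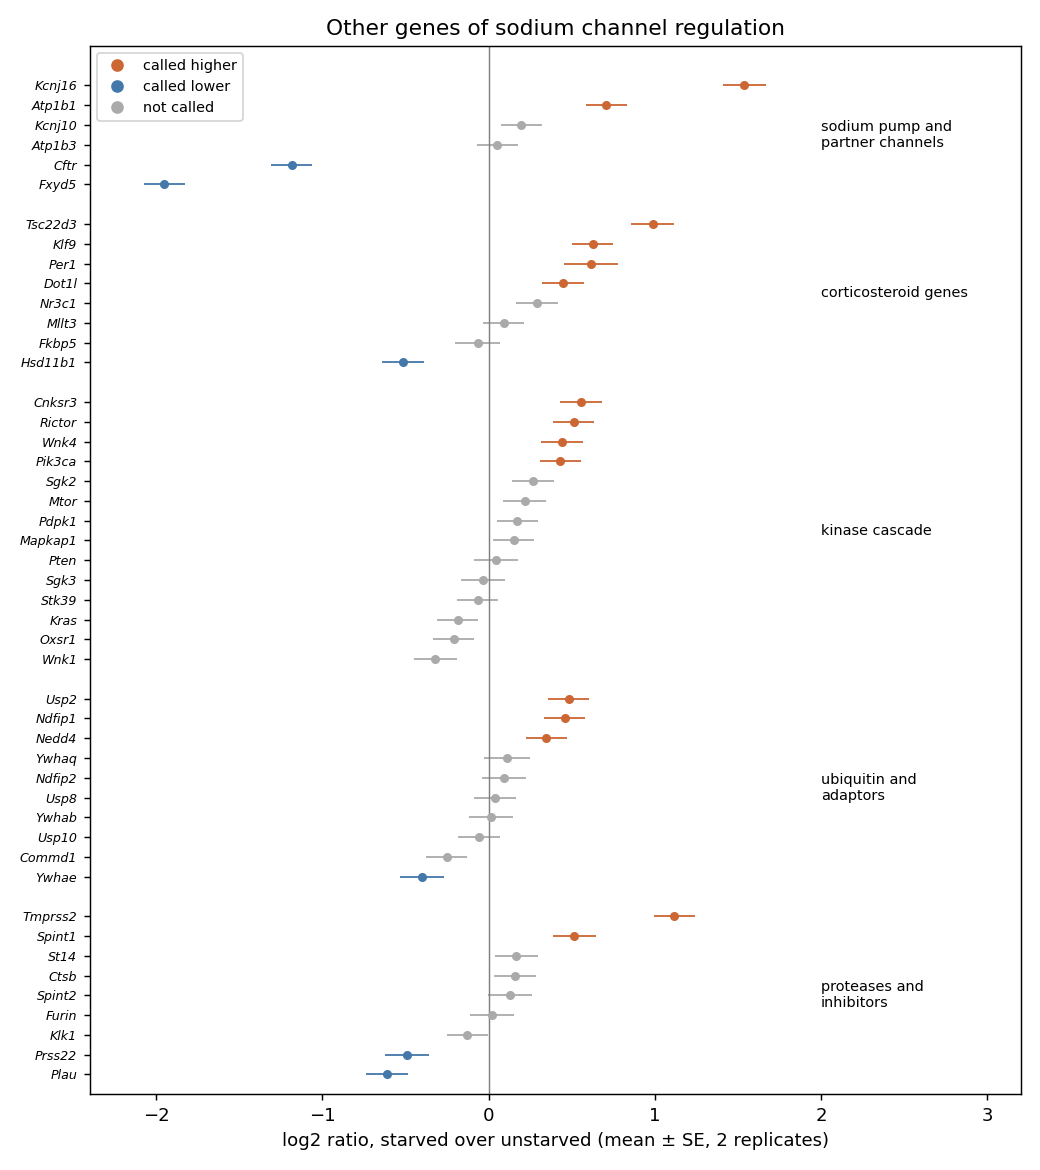
Log2 ratio of starved over unstarved signal with its moderated SE (2 replicates) for 47 of the 48 tested genes of the regulation list, grouped by role; orange genes were called higher, blue lower, grey were not called. Kcnj16 (1.54) and Tmprss2 (1.12) stand farthest to the right and Fxyd5 (-1.95) and Cftr (-1.18) farthest to the left.

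The protein-coding genes next to the 9 on their chromosomes numbered 16, members left out, and 11 were tested: 5 rose, 0 fell and 6 did not pass, where 18.1% of all genes tested rose and 13.4% fell. The 5 were Tnfrsf1a beside Scnn1a (0.70), Cog7, Atp8b1 beside Nedd4l (0.52), and Zdhhc1 (0.58) and Atp6v0d1 (0.67) beside Hsd11b2; all 5 lost their calls with median centring.

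Markers of the collecting duct and of other cell types also differed between the groups; 18.1% of all genes tested rose and 13.4% fell. Of the 7 collecting duct markers tested 2 rose and 1 fell. Avpr2, the vasopressin receptor gene, rose (1.11) and was above background in 4 of 4 starved but 1 of 4 unstarved samples, and Hoxb7 rose (0.55). Gata2, above background in 4 of 4 unstarved and 0 of 4 starved samples, was at least 2.10-fold lower. Avpr2 and Gata2 thus each entered the test only through the group where it was higher. Aqp2 had -0.19 (limma adjusted p = 0.265). Aqp3 (-0.21), Slc14a2 (-0.16) and Gata3 (-0.18) did not pass either, and the median ratio of the 7 was -0.18. The summed linear signal of the 9 collecting duct markers was 34480 to 40216 in unstarved and 45782 to 55436 in starved samples. These sums did not overlap, as was so for the signals of 51.8% of all genes tested. A linear sum is weighted to the brightest markers, so it does not show a rise of the list as a set. Of 9 fibroblast markers, Col1a1 (-1.01) fell and Postn, above background in 4 of 4 unstarved and 0 of 4 starved samples, was at least 1.91-fold lower. Postn entered the test only through the unstarved group. Col1a2 did not pass and 6 were above background in 0 of 8 samples. The summed fibroblast signal was 1559 to 1690 in unstarved and 1191 to 1260 in starved samples. The 5 endothelial markers, of which 0 were above background on all 4 arrays of a group, summed to 518 to 525 in unstarved samples. In starved samples they summed to 502 to 562. The sums of the fibroblast, intercalated cell and leukocyte lists therefore hold much signal near background and are no measure of expression by themselves. Of 5 intercalated cell markers Slc26a4 rose (1.00) and Atp6v0a4 fell (-0.35). Slc26a4 was above background in 3 of 4 unstarved and 4 of 4 starved samples, and Atp6v0a4 in 4 of 4 and 2 of 4. Each entered the test only through the group where it was higher. Foxi1 and Atp6v1b1 were above background in 0 of 8 samples. The summed signal of the 5 was 671 to 767 in unstarved and 772 to 849 in starved samples. Of 3 leukocyte markers tested Ptprc fell (-0.50). Ptprc was above background in 4 of 4 unstarved and 2 of 4 starved samples, so it entered the test only through the unstarved group. The summed signal over all 5 leukocyte markers was 787 to 999 in unstarved and 701 to 859 in starved samples. In the epithelial list 5 of 8 rose, Cldn4 (0.86, from 0.26 in replicate 1 and 1.47 in replicate 2) and Cdh1 (0.67) among them, while Krt19 (-0.90) and Krt8 (-0.64) fell. The summed epithelial signal was 684092 to 717322 in starved and 702404 to 760674 in unstarved samples. All cells were of 1 line, so the lists name marker genes and not cell types known to be in the cultures. The part of these markers in the values of the sodium channel genes was not tested. Fewer cells with a transcript and less of that transcript per cell cannot be told apart in such bulk samples.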

How the data were processed

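Gene expression in 8 samples was read from 4 Agilent 2-colour arrays. For each spot the authors deposited an intensity (mean signal) and a local background (median), written by Agilent Feature Extraction 9.5.3.1 according to the submitters' processing notes. The deposited processed intensity values were background-subtracted, detrended and dye-normalised by that software, per the file headers. A further deposited table holds linear intensities with sample medians of 74.7 to 77.1 and a lowest value of 15. Above that value, they correlated at 1 on the log2 scale with the processed signals of the sample's own channel and lay lower by a constant per array (median log2 difference -0.409 to -0.31), so they are uncentred; the rule behind the constant was not given in the sources used here. Both files of an array were identical on 4 of 4 arrays, so each sample was read from the channel of its dye label. Per the file headers, 1 slide holds the 4 arrays, scanned once.

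Signals were corrected with normexp (offset 50) and normalised by loess within arrays (limma 3.58.1, R 4.3.3), with control and flagged spots at weight 0; 0 spots of the 14 probes were flagged. Single-channel signals followed Aquantile scaling. The 2 arrays of a replicate, from the titles, were averaged and both replicate ratios fitted with lmFit and eBayes, two-sided, over 16068 genes, each represented by its brightest probe well above background on all 4 arrays of at least 1 group. The fit was also run on simulated data with a far smaller share of changed genes than was called here. That run therefore does not vouch for the calls. Precision is limited by the number of replicates, 2. Array ratios correlated at 0.991 within each replicate and at 0.824 to 0.830 across replicates. The titles put both arrays of replicate 1 in one dye orientation and both of replicate 2 in the other, which is at odds with the series text on a dye swap within each pair. The pairing of starved with unstarved samples is that of the hybridisations; samples with the same number, which carry opposite dyes, deviated from their group means with a correlation of -0.297.

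The 9 genes and all lists were chosen with earlier results of these data known. Named genes are all 9 with every probe, in each role group of the list the called genes with the largest ratios (up to 4 each way), and the 3 genes nearest in ratio to the 2 genes with the largest ratios; other named genes were chosen after their values were seen. The value of 1 gene of the list, which did not pass the test, is not reported here. Genes were named through a RefSeq table (GRCm38.p6) by accession, symbol or synonym (24375, 6301 and 2426 probes), and 8072 kept the array's name.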

Additional observations from a re-analysis of the deposited data

How the results depend on the processing

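Of the 8 measured sodium channel genes, all kept their direction under every alternative tried, from 18 for Hsd11b2 to 19 for the others; the largest moves were those of Scnn1g and Tmprss4 with the scanner's processed signals (3.37 and 4.21), and Sgk1 came down to 0.01 with median centring. Leaving out replicate 1 or 2 gave 2.37 and 2.22 for Scnn1g, 3.46 and 3.62 for Tmprss4 and 1.27 and 0.86 for Prss8. The counts of calls changed far more. Median centring gave 249 called genes in place of 5051 and 1 regulation gene in place of 21. Pairing array 1 with 2 and 3 with 4 gave 14296 and 46, pairing 1 with 4 and 2 with 3 gave 14102 and 44, and a dye term 14200 and 44; in these the difference between the replicates no longer enters the error. Crossed replicate numbers, added after seeing the data, gave 7594 and 27. Without the pairing (no replicate block) 5858 genes and 23 regulation genes were called, and leaving out single arrays gave 4961 to 5519 and 21. Of the 21 regulation genes named, 20 lost their call with median centring, 4 lost it in another of the 17 alternatives with a test, and 0 turned direction. For the 9 measured probes of these genes, no sample stood apart by Dixon's criterion (0 of 18 groups of 4). The criterion looks at single samples, so it could not flag a replicate whose 2 arrays both lay apart. Unstarved signals near background limit the size of the ratios of Scnn1g, Tmprss4 and Hsd11b2.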
